A study of Mus musculus with 160 samples.

Results

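Interferon regulatory factor 4 (*Irf4*) and 9 genes of plasma cells and B cells (*Prdm1*, *Xbp1*, *Sdc1*, *Tnfrsf17*, *Mzb1*, *Pou2af1*, *Derl3*, *Tnfrsf13b* and *Tnfrsf13c*) were followed through RNA sequencing of distal colon from 160 mice, as 10 of the 39179 genes counted. *Irf4* was selected on its measured fold change and adjusted p between knockout and wild type in the *Dock2* line, and the other 9 were chosen with it as genes of the same cells and with those values known, so the differences of all 10 in that line are given below as a description, with no test. Of the 10, 8 were taken as genes of plasma cells and B cells, while *Xbp1* and *Sdc1* are also made by epithelium. *Prdm1*, one of the 8, did not follow the antibody genes in these libraries and went with neutrophil and squamous genes, as given below.

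The libraries came from 4 mouse lines, each carrying the loss of a gene of immune cell signalling and each with wild-type mice. Libraries labelled HEM1, an older name of *Nckap1l*, a subunit of an actin-regulating complex of blood cells, comprised 16 homozygous knockouts (4 females and 12 males) and 15 wild types (8 females and 7 males). For *Dock2*, which encodes a guanine nucleotide exchange factor of lymphocytes, there were 18 knockouts (8 females and 10 males) and 24 wild types (12 and 12). *Gpsm3*, a regulator of G protein signalling, gave 20 and 20 libraries, and *Dok3*, an adaptor that restrains signalling in B cells and macrophages, gave 26 and 21, all of them labelled male in both lines. Strain 129 was given for the *Dok3* mice and C57BL6/J for the others. The knockouts came from existing models that had been re-derived, and heterozygous crosses gave littermates of both genotypes, which were housed together and used as young adults. Dextran sulfate sodium (DSS), a polymer that mice drink with their water and that damages the lining of the colon, was given at 3% in the *Dock2* and *Gpsm3* lines and 3.5% in the *Dok3* line, with no dose in the labels of the *Nckap1l* line. It was given for 5 days and was followed by water, until tissue was taken on day 10, or on day 12 in the *Nckap1l* line. The paper states a slightly lower dose for the *Nckap1l* mice, and for the *Dok3* mice 3% in a first round and 3.5% after it. The labels do not say which mice drank DSS and which did not, so each group held an unknown mix of both, and only genotype and sex were compared.

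Plasma cells arise from B cells that stop dividing and devote themselves to secreting antibody, and the colon wall holds many of them, most making IgA. *Irf4* and *Prdm1* (Blimp-1) are the transcription factors that carry out the switch from B cell to plasma cell, and *Xbp1* enlarges the secretory machinery in the unfolded protein response, the pathway by which a cell adds chaperones when its endoplasmic reticulum is loaded with protein. *Irf4* also acts in activated T cells, *Prdm1* in T cells, myeloid cells and several epithelia, and *Xbp1* in secretory cells of many kinds, including those of the gut. Of the other genes, *Mzb1* encodes a chaperone of antibody-making cells, *Derl3* a part of the machinery that removes misfolded proteins from the endoplasmic reticulum, and *Pou2af1* (OCA-B) a coactivator that octamer-binding factors recruit in B cells. *Sdc1* encodes syndecan-1 (CD138), the surface proteoglycan by which plasma cells are sorted and which epithelia carry as well. *Tnfrsf17* (BCMA), *Tnfrsf13b* (TACI) and *Tnfrsf13c* (BAFF receptor) encode the receptors for the survival factors BAFF and APRIL, with BCMA the one of plasma cells and BAFF receptor that of mature B cells.

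In the GENCODE M21 annotation of the mm10 build, *Irf4* lies on chromosome 13 from 30749226 to 30766976 on the plus strand, *Prdm1* on chromosome 10 from 44437177 to 44528501 on the minus strand, *Xbp1* on chromosome 11 from 5520659 to 5525893 (plus) and *Sdc1* on chromosome 12 from 8771323 to 8793715 (plus). The secretory gene *Derl3* lies on chromosome 10 from 75893413 to 75895941 (plus) and *Pou2af1* on chromosome 9 from 51213708 to 51240080 (plus). For the receptors, *Tnfrsf17* lies on chromosome 16 from 11313812 to 11320074 (plus), *Tnfrsf13b* on chromosome 11 from 61126755 to 61149372 (plus) and *Tnfrsf13c* on chromosome 15 from 82221743 to 82224369 (minus). Counts took in whole genes, exons of all transcripts together. A processed pseudogene, Gm12269, lies within *Tnfrsf13b* on the opposite strand, with a highest level of 0.514 CPM (counts scaled to a common library total), against a mean of 4.56 CPM for *Tnfrsf13b*.

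The windows before the start of 9 of the 10 genes were taken from a RefSeq table of promoters on GRCm38.p6. *Mzb1* was left out of this search. In the 9 windows, 5 short motifs of the regulators named above were searched in both strands of the 250 bases upstream. They are shown because *Irf4*, *Pou2af1* and *Xbp1* act on promoters like these, and the windows of *Irf4* and of the 3 genes with a match are printed 5′ to 3′ in the direction of the gene. Capitals mark the match: in *Tnfrsf17* the core of an interferon-stimulated response element (GAAA, 2 free bases and GAAA again, here on the opposite strand, from −101 to −92), which factors of the IRF family can bind, in *Pou2af1* the unfolded protein response element (TGACGTGG, from −61 to −54) and in *Derl3* the endoplasmic reticulum stress element (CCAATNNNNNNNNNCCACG, on the opposite strand, from −156 to −138), both of them elements of the response in which *Xbp1* acts.
Irf4: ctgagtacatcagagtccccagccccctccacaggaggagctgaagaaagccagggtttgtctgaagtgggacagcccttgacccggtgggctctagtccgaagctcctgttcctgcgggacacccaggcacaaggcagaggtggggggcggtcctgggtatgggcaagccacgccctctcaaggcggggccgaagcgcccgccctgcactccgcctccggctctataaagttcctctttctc
Tnfrsf17: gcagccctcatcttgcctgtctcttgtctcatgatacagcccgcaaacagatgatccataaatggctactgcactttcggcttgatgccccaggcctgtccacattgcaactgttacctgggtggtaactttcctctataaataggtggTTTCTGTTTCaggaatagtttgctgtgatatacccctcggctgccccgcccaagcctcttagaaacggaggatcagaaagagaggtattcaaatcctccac
Pou2af1: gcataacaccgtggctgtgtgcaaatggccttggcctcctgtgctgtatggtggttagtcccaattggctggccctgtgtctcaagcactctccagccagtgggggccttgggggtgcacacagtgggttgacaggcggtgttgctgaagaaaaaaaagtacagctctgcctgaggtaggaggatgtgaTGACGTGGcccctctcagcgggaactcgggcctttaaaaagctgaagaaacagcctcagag
Derl3: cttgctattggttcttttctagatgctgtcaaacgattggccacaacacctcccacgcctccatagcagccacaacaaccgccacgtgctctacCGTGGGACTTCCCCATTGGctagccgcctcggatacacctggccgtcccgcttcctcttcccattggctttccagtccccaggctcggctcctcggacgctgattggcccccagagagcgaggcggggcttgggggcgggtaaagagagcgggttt
The last bases of the *Irf4* window, which runs to 30749232, lie past the annotated start of the gene and are not printed, though they were searched. The *Sdc1* window, which runs to 8771395, also ends past the annotated start. That of *Prdm1* (44458749 to 44458998), set by its RefSeq start, lies wholly inside the annotated gene. The stretches printed are chr13:30748983-30749225, chr16:11313559-11313808, chr9:51213440-51213689 and chr10:75893148-75893397, in the same order and all on the plus strand. Among all 32851 promoters of the table, the endoplasmic reticulum stress element was found in 37 (0.113%), the unfolded protein response element in 185 (0.563%) and the interferon-stimulated core in 978 (2.98%). The octamer (ATTTGCAT, 1.60% of all promoters) and the composite core to which IRF4 binds beside an Ets factor (GGAA, 2 free bases and GAAA, 2.30%) had no match in the 9 windows. No match was found in *Irf4*, whose window was 63.6% G and C against a median of 52.4% over all promoters. A match says only that these letters stand there.

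**Figure D1:**
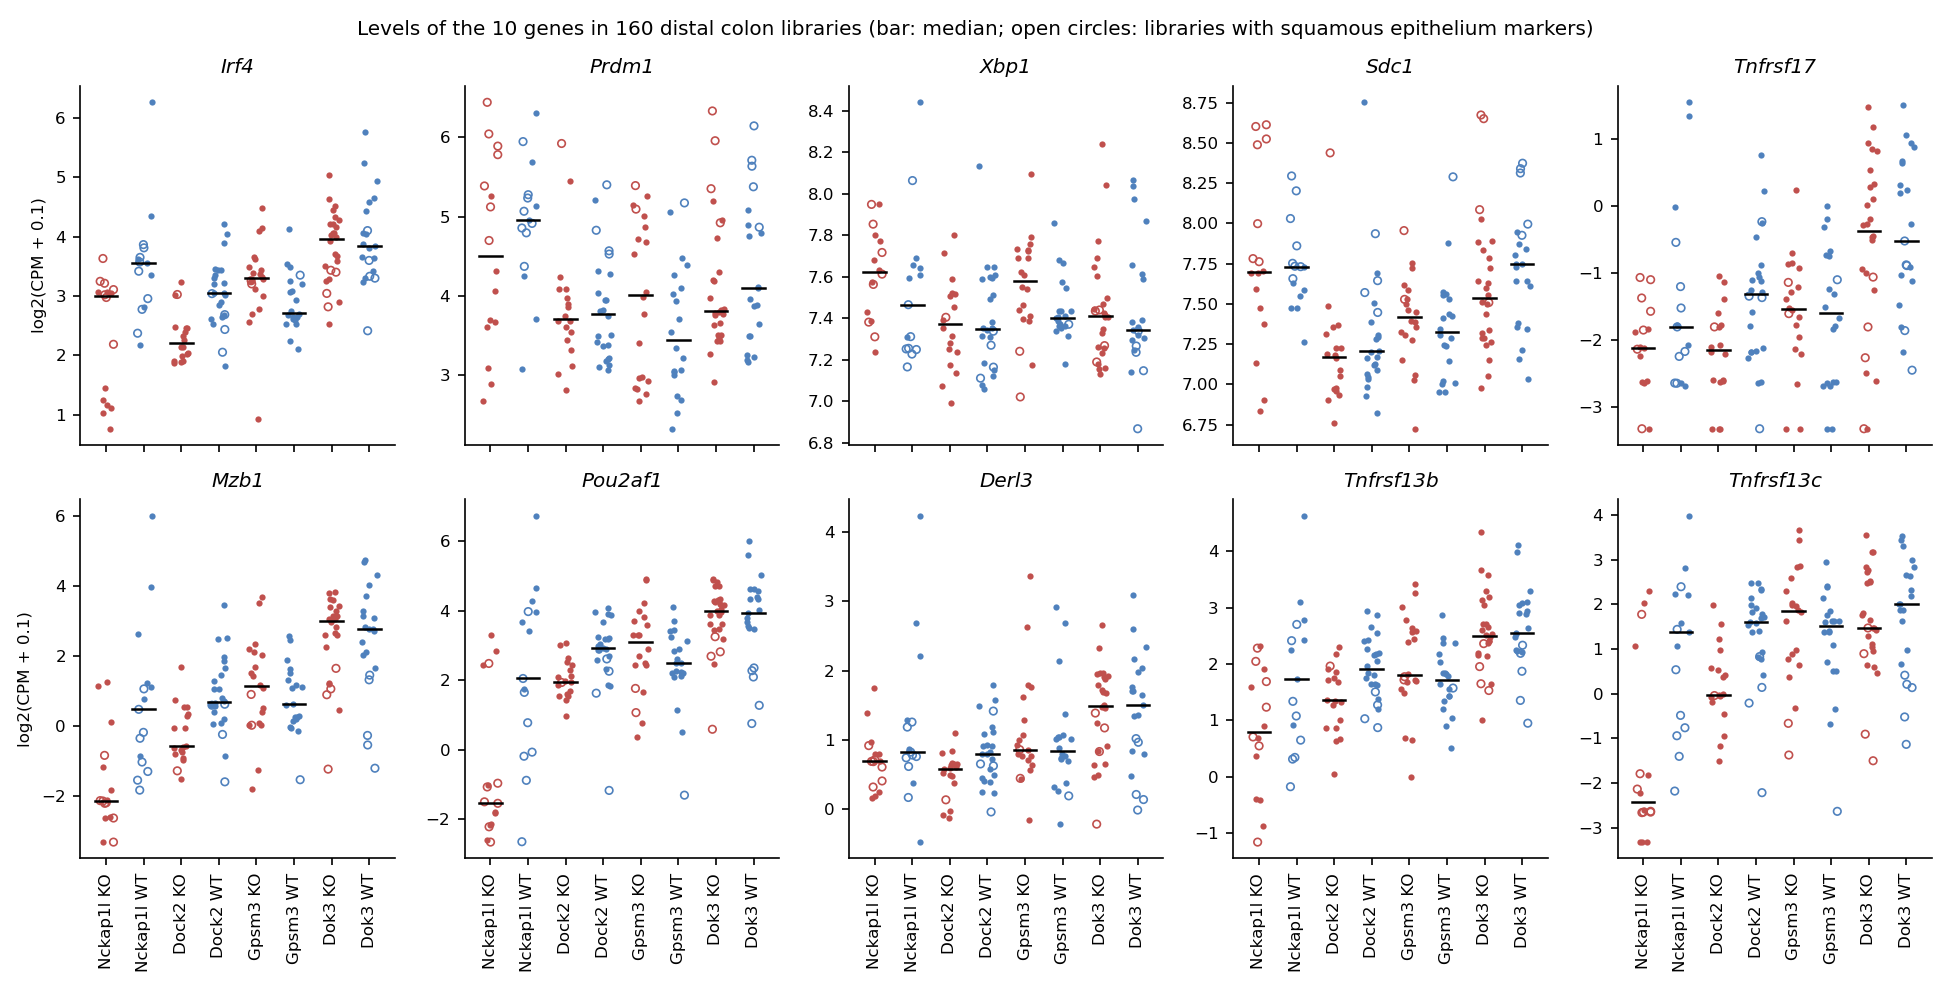
Level of each of the 10 genes in 160 colon libraries, as log2 of CPM plus 0.1 (vertical axis), in the 8 groups of line and genotype (horizontal axis), with knockout in red and wild type in blue, a bar at each group's median and open circles for the 32 libraries with markers of squamous epithelium. *Xbp1* and *Sdc1* lie high with little spread, while *Mzb1* and *Pou2af1* reach from near 0 to above 60 CPM.

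The 10 genes differed widely in level. Per kilobase of exon, *Xbp1* (55.4 CPM per kilobase, mean of all libraries) and *Sdc1* (49.9) stood far above *Pou2af1* (4.08), *Prdm1* (3.87), *Mzb1* (3.33), *Irf4* (2.24), *Tnfrsf13b* (1.61), *Tnfrsf13c* (1.49), *Derl3* (1.17) and *Tnfrsf17* (0.573). In CPM not scaled to length, *Irf4* had a mean of 11.0 ± 8.70 (SD, n = 160), with a lowest library at 1.59, a median of 9.34 and a highest of 76.7. *Tnfrsf17*, *Tnfrsf13c* and *Mzb1* were near the limit of detection in many libraries, and *Pou2af1* in many of the *Nckap1l* line. *Tnfrsf17* was at 0 counts in 12 libraries, *Tnfrsf13c* in 3 and *Mzb1* in 2, and 3 counts corresponded to between 0.15 and 0.69 CPM, according to the total count of the library (4344988 to 19993833, median 15989625). In the fits reported first for each line, *Tnfrsf17* passed the filter on low counts only in the *Dok3* line and in the fit over 3 lines, and the other 9 genes passed it in every line. The filter depends on the covariates and libraries, so that in the *Nckap1l* line all 10 genes passed with the run of sample numbers as a covariate and 8 without the sex covariate.

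The spread between mice also differed from gene to gene. Between the 10th and the 90th percentile of the libraries, *Mzb1* differed 25.96-fold, *Pou2af1* 23.5-fold and *Tnfrsf13c* 17.9-fold, against 6.74-fold for *Tnfrsf17*, 5.16-fold for *Prdm1*, 5.08-fold for *Tnfrsf13b*, 4.30-fold for *Irf4*, 3.28-fold for *Derl3*, 2.03-fold for *Sdc1* and 1.55-fold for *Xbp1*. The 8 groups of line and genotype accounted for 46.2% of the variance of *Mzb1* on the log2 scale, 44.3% for *Pou2af1*, 41.1% for *Irf4* and 8.16% for *Xbp1*. Most of the variance of each gene therefore lay between mice of the same group.

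Ordered by mean *Irf4*, the groups ran from 5.07 ± 1.71 CPM (n = 18) in the *Dock2* knockout libraries, over 6.05 ± 3.49 (n = 16) in the *Nckap1l* knockout, 7.81 ± 3.04 (n = 20) in the *Gpsm3* wild type, 8.75 ± 3.66 (n = 24) in the *Dock2* wild type, 10.4 ± 4.47 (n = 20) in the *Gpsm3* knockout and 14.99 ± 17.5 (n = 15) in the *Nckap1l* wild type, to 15.1 ± 6.30 (n = 26) in the *Dok3* knockout and 17.9 ± 11.4 (n = 21) in the *Dok3* wild type. Each of the 7 steps between neighbours in this order was smaller than the larger of their SDs, the spread of single mice. This does not say whether the means of neighbours differ. *Mzb1* and *Pou2af1* were also at their highest means in the *Dok3* line, with 8.52 ± 7.74 and 18.5 ± 15.3 CPM in its 21 wild-type libraries. The *Dok3* line differed from the others in strain and labelled dose as well, and the *Nckap1l* line in day and, by the paper, in dose. None of this can be told apart from the line, so the differences between lines are given without a test.

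Before genotype is described, some libraries need naming. Markers of squamous epithelium, the lining of skin and anus and not of the colon (*Krt5*, *Krt14*, *Krt1*, *Krt10*, *Lor*, *Dsg3* and *Trp63*), were high in 32 of the 160 libraries and low in the other 128, with 7 of 16 and 8 of 15 in the *Nckap1l* line (knockout and wild type), 1 of 18 and 4 of 24 in *Dock2*, 2 of 20 and 1 of 20 in *Gpsm3* and 4 of 26 and 5 of 21 in *Dok3*. In the *Nckap1l* line they were in 13 of 14 libraries of the first run of sample numbers, 1 of 9 of the second and 1 of 8 of the third. The targeted gene was lower in the knockout group of each line but not absent, with medians of its ratio to the leukocyte gene *Ptprc* of 0.244 against 0.489 for *Nckap1l*, 0.383 against 0.533 for *Dock2*, 0.00689 against 0.0510 for *Gpsm3* and 0.0316 against 0.0571 for *Dok3*. That ratio lay at or past the other genotype's median in 18 libraries, whose targeted gene is said below to go against the label. Sex markers went against the label in 5 libraries of the *Dok3* line. All were kept under their labels, and the counts below were repeated without each kind of library. The 13 genes of the colonic epithelium list were detected in all groups, with median summed levels of 10020 to 13140 CPM, and so were all 9 antibody genes named in the files and all 11 B cell genes.

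In the *Dock2* line, from which the choice was made, *Irf4* ranged from 3.57 over a median of 4.51 to 9.34 CPM in the 18 knockout libraries and from 3.44 over 8.14 to 18.5 CPM in the 24 wild-type libraries. The wild-type libraries reached higher, and the lowest libraries of both genotypes were alike. The targeted gene went against the label in 4 of the wild types (3.44, 4.04, 5.97 and 7.31 CPM of *Irf4*) and 2 of the knockouts (7.99 and 9.34 CPM). Among these were the lowest wild type and the highest knockout, and their part in the overlap was not tested. The log2 fold change of knockout against wild type was −0.79 for *Irf4*, −1.43 for *Mzb1*, −1.16 for *Tnfrsf13c*, −0.90 for *Pou2af1*, −0.57 for *Tnfrsf13b* and −0.38 for *Derl3*, and it was near 0 for *Sdc1* (−0.13), *Xbp1* (−0.02) and *Prdm1* (0.09). For *Mzb1* the level was 0.891 ± 0.689 CPM (SD, n = 18) against 2.39 ± 2.31 CPM (n = 24). In this contrast 0.0333% of the 18006 genes tested were called, and *Irf4* is the one member among them, by the rule that chose it. Markers of B cells were also lower, with all 11 genes of the list negative (median −0.89) and a summed level from 17.4 over 36.3 to 110 CPM in the knockout and from 9.11 over 86.7 to 165 CPM in the wild type. The 8 antibody genes tested were negative too (median −1.22, summed level 55.9 to 891 against 43.2 to 1943 CPM), as were 10 of 12 T cell genes (median −0.18). The part of these cells in the values of the members was not tested, and in bulk tissue fewer cells of a type and less RNA per cell cannot be told apart.

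The *Nckap1l* line was not used in the choice and gave a test. *Irf4* ranged from 1.59 over a median of 7.87 to 12.3 CPM in 16 knockout libraries and from 4.43 over 11.7 to 76.7 CPM in 15 wild-type libraries. The knockout libraries were lower on the whole, with overlapping ranges, and the log2 fold change was −0.91 ± 0.385 (SE, edgeR's quasi-likelihood test, unadjusted p = 0.0246, adjusted p = 0.9995 over all 19009 genes). *Pou2af1*, the B cell coactivator, had a fold change of −3.04 ± 1.06 (adjusted p = 0.877 by edgeR), from 0.0592 over 0.250 to 9.77 CPM in the knockout and from 0.0604 over 4.05 to 106.5 CPM in the wild type. *Mzb1*, the antibody chaperone, had −3.02 ± 1.04 (adjusted p = 0.874 by edgeR), at 0.449 ± 0.729 CPM against 6.58 ± 16.6, or 2.42 ± 4.10 without wild-type library 8. In both genes the medians of the genotypes lay far apart while the lowest libraries of both were near 0.

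Of the 9 members tested in this line, none was called by edgeR, DESeq2 or limma-voom at an adjusted p of 0.05, in a contrast where 0.00526% of all genes were called. At an unadjusted p of 0.05 there were 6 by edgeR, 5 by DESeq2 and 4 by limma-voom, all lower in the knockout, where 877, 992 and 787 of all 19009 genes passed (4.61% by edgeR). In males alone 1 of the 9 did, with a median of −0.48. Beside *Irf4*, *Pou2af1* and *Mzb1*, the 6 by edgeR were the receptors *Tnfrsf13c* (log2 fold change −2.29 ± 0.903) and *Tnfrsf13b* (−1.05 ± 0.487) and *Derl3* (−0.80 ± 0.391). The epithelial pair stood at 0.20 ± 0.153 for *Sdc1* and 0.09 ± 0.114 for *Xbp1*, and *Prdm1* at 0.01 ± 0.349. The median of the 9 was −0.91 against 0.00658 over all genes. Wild-type library 8, the one library of the first run of sample numbers without squamous markers, held the highest level of 8 of the 10 genes in the series (2.83 CPM for *Tnfrsf17*, 76.7 CPM for *Irf4*, 106.5 for *Pou2af1*, 64.8 for *Mzb1*, 18.8 for *Derl3*, 348 for *Xbp1*, 24.7 for *Tnfrsf13b* and 15.7 for *Tnfrsf13c*). Without it the fold change was −0.66 for *Irf4* (unadjusted p = 0.0345 by edgeR), −2.71 for *Pou2af1*, −2.56 for *Mzb1* and −2.04 for *Tnfrsf13c*, while *Derl3* (−0.45) and *Tnfrsf13b* (−0.78) no longer passed an unadjusted p of 0.05.

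Genes of the B cell lineage outside the members stood on the same side in the *Nckap1l* line. All 11 B cell genes were lower, with a median of −2.22 and each at an unadjusted p under 0.05, none called after adjustment; the CD20 gene *Ms4a1* had −2.58 and the follicular homing receptor *Cxcr5* −1.34. All 9 antibody genes tested were lower as well (median −2.41, 5 at an unadjusted p under 0.05), with −4.01 for the IgG1 heavy chain *Ighg1* (unadjusted p = 0.00117, adjusted p = 0.619 by edgeR) and −1.52 for the IgM heavy chain *Ighm*. Of 16 transcription factors of B cell and plasma cell development, 12 were lower and 5 at an unadjusted p under 0.05, among them *Pax5* (−2.92), which holds the B cell identity, *Pou2f2* (−1.06) and *Ebf1* (−0.48). Of 15 survival ligands and homing genes 9 were lower, with *Itga4* (−0.56) the one at an unadjusted p under 0.05. The 31 genes of the unfolded protein response were evenly split, 15 lower and 16 higher, with a median of 0.002; the sensor *Ern1* (0.12) and *Herpud1* (0.19), which acts in the removal of misfolded proteins, were the 2 at an unadjusted p under 0.05. T cell genes were split 6 and 6 (median −0.01), and 11 of 13 epithelial genes were lower (median −0.06). Smooth muscle genes were lower in 6 of 6 (median −0.39, 4 at an unadjusted p under 0.05), and squamous and goblet cell genes higher in 7 of 7 each (medians 0.84 and 0.35).

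**Figure D2:**
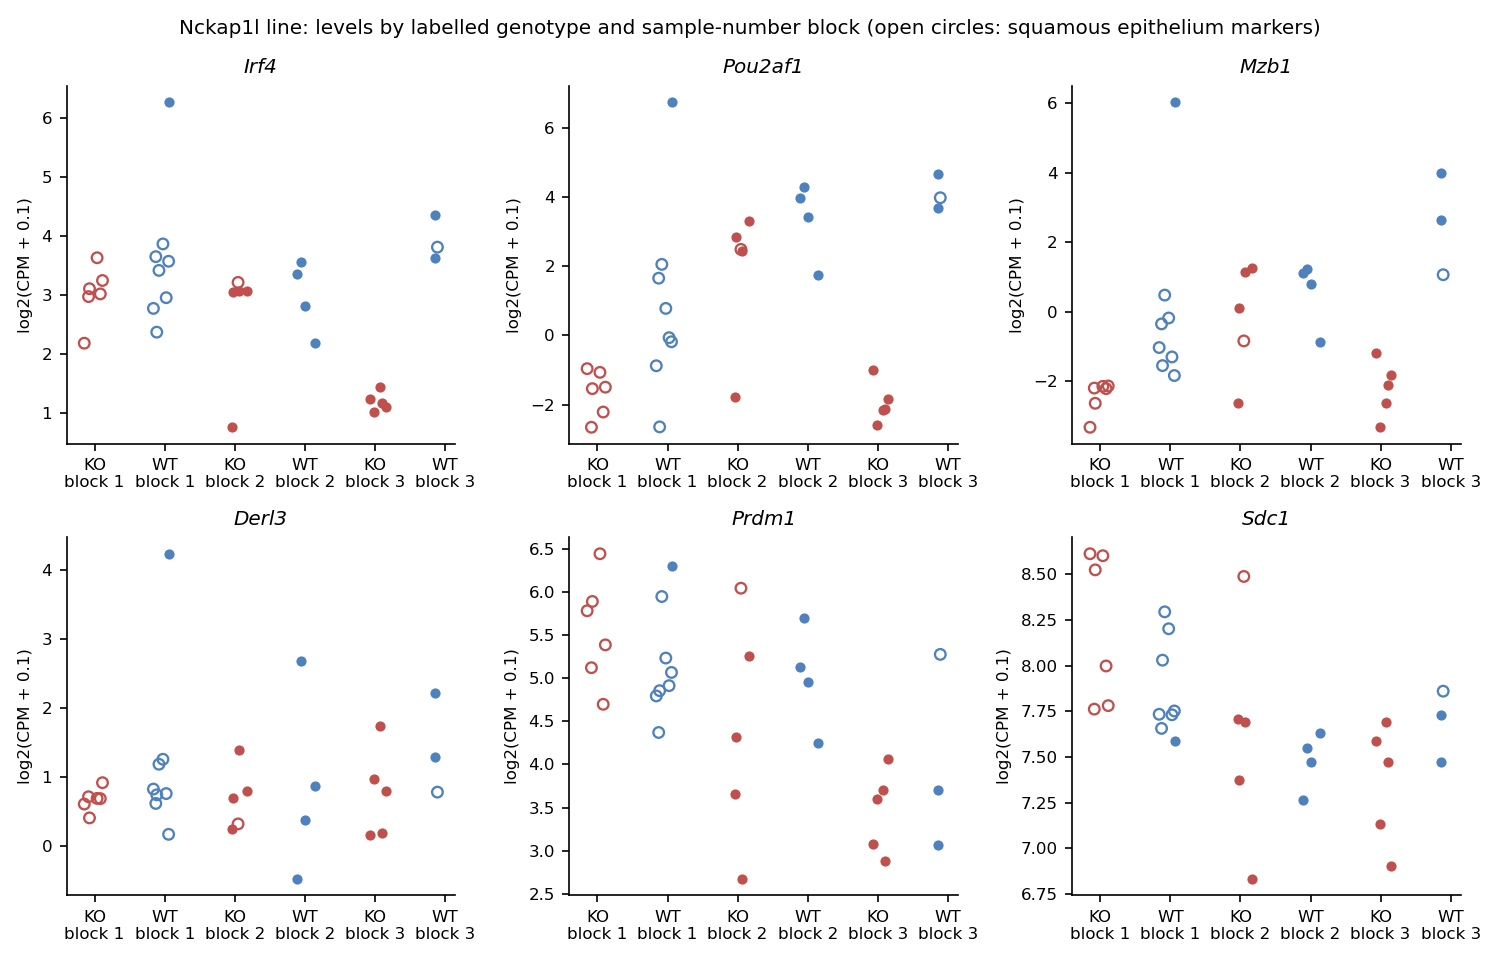
Levels of 6 genes in the 31 libraries of the *Nckap1l* line, as log2 of CPM plus 0.1 (vertical axis), by genotype within each of the 3 runs of sample numbers (horizontal axis), each point a library. In the third run the 5 knockout libraries of *Irf4* sit between 1.93 and 2.63 CPM, below the 3 wild-type libraries at 12.2 to 20.3 CPM.

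The sample numbers of the *Nckap1l* line fall into 3 runs, and the difference was not equal in them. In the first run, *Irf4* was at 4.44, 8.25 and 12.3 CPM (lowest, median and highest of 6 knockout libraries) and at 5.07, 11.2 and 76.7 CPM (8 wild types). In the second run, the 5 knockout libraries were at 1.59, 8.15, 8.23, 8.25 and 9.17 CPM and the 4 wild types at 4.43, 6.90, 10.2 and 11.7 CPM. These ranges overlapped, with 1 knockout library far below the rest. The knockout libraries at 8.23 and 9.17 CPM were those of the line whose targeted gene went against the label. In the third run, the knockout libraries were at 1.93, 2.06, 2.14, 2.26 and 2.63 CPM and the wild types at 12.2, 13.9 and 20.3 CPM. The knockout libraries lay close together there and well under the wild types. The mean log2 difference of knockout minus wild type was thus −0.58, −0.34 and −2.71 in the 3 runs.

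*Pou2af1* showed the same contrast between the runs: 0.0665 to 0.396 CPM against 12.7, 15.7 and 25.1 CPM in the third, but 0.0592 to 0.415 CPM against 0.0604 to 106.5 CPM in the first, where the median wild-type library was at 1.24 CPM. In the second run it was at 5.32 to 9.77 CPM in 4 of the 5 knockout libraries, and at 3.27, 10.6, 15.6 and 19.4 CPM in the wild types. *Mzb1* was at 0 to 0.340 CPM against 1.99, 6.06 and 15.6 CPM in the third run. Of the 10 genes, 7, 8 and 10 were lower in the knockout in the 3 runs by the mean of log2 CPM, and every knockout library lay below every wild type for 1 (*Mzb1*), 0 and 6 genes (*Irf4*, *Tnfrsf17*, *Mzb1*, *Pou2af1*, *Tnfrsf13b* and *Tnfrsf13c*). Over all genes with a mean log2 CPM of at least 0 in the run, that held for 0.0236%, 0.4% and 2.48%. The members were counted without that limit. Among the members that met it, every knockout library lay below every wild type for 0 of 6, 0 of 9 and 3 of 7 in the 3 runs. The third run held 4 males and 1 female among its knockouts and 1 male and 2 females among its wild types, and the first run nearly all of the squamous libraries of the line, so sex and tissue makeup moved with these values and their part was not tested. Without the squamous libraries of the line, *Irf4* had a log2 fold change of −1.46 ± 0.564 (adjusted p = 0.350 by edgeR), *Tnfrsf17* −2.02 and *Prdm1* −1.08, and none of the members was called.

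In this line the B cell genes parted the libraries into 2 sets with a gap between them. In 17 libraries, 12 labelled knockout and 5 wild type, the mean log2 CPM of the 11 genes was between −1.23 and 0.41, and in the other 14, 4 labelled knockout and 10 wild type, between 2.10 and 5.35. *Pou2af1* was parted in the same way, at 1.62 CPM or less in the first set and at 3.05 CPM or more in the second. *Irf4* was not, and ranged from 1.59 to 14.5 CPM (median 6.73) in the first set and from 4.43 to 76.7 CPM (median 10.4) in the second. The first set held 11 of the 14 libraries of the first run of sample numbers, 1 of the 9 of the second and 5 of the 8 of the third, and the 4 knockout libraries of the second set were all of the second run. Of these 4, 2 (knockout libraries 8 and 10) were the ones of the line whose targeted gene went against the label. The part of the labels was not tested. Squamous markers were present in 11 of the 17 and 4 of the 14.

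**Figure D3:**
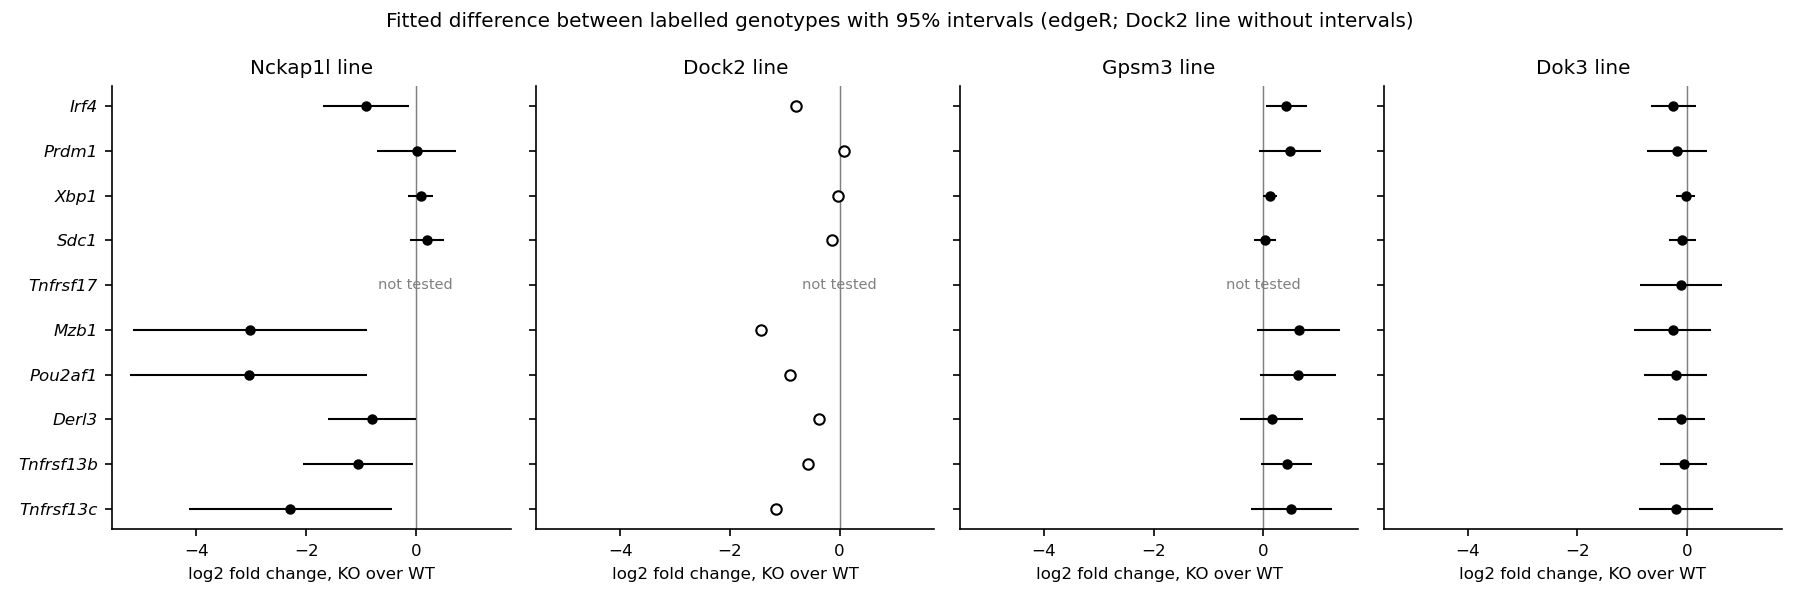
Log2 fold change of knockout against wild type (horizontal axis) of each of the 10 genes in the 4 lines, fitted by edgeR, with 95% intervals; open points without an interval mark the *Dock2* line, which was used to choose the genes, and *Tnfrsf17* passed the filter of these fits in the *Dok3* line only. *Pou2af1* and *Mzb1* lie near −3 in the *Nckap1l* line, and all 9 genes tested lie above 0 in the *Gpsm3* line.

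The *Gpsm3* line leaned the other way. *Irf4* ranged from 1.79 over a median of 9.78 to 22.2 CPM in 20 knockout libraries and from 4.20 over 6.47 to 17.3 CPM in 20 wild-type libraries. The ranges overlapped with the knockout median higher, and the log2 fold change was 0.42 ± 0.184 (unadjusted p = 0.0284, adjusted p = 0.936 by edgeR). All 9 members tested were positive, from 0.03 for *Sdc1* and 0.12 for *Xbp1* to 0.63 for *Pou2af1* and 0.64 for *Mzb1*, with a median of 0.42 against 0.00318 over all genes, and of 0.19 with 2 surrogate variables, when none had an unadjusted p under 0.05. None was called by edgeR, DESeq2 or limma-voom (0.00569% of all genes were by edgeR), and at an unadjusted p of 0.05 there was 1 by edgeR (4.86% of all genes), 1 by DESeq2 and 0 by limma-voom. *Pou2af1* was at 10.2 ± 8.27 CPM against 6.57 ± 4.06 and *Tnfrsf13c* at 3.96 ± 3.32 CPM against 2.80 ± 1.80. These differences were smaller than the spread between mice. Both runs of sample numbers, each with 10 knockouts and 10 wild types, had *Irf4* higher in the knockout, by 0.25 and 0.45 on the log2 scale.

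Other immune genes of the *Gpsm3* line were positive along with the members, and none was called. All 11 B cell genes were positive (median 0.54), as were 8 of 9 antibody genes (0.49), 15 of 16 transcription factors (0.25), all 12 T cell genes (0.24), all 12 genes of macrophages and dendritic cells (0.29) and the 6 neutrophil genes tested (0.89). So were the 4 genes of striated muscle tested (1.29). At an unadjusted p under 0.05 were the germinal centre factor *Bcl6* (0.44), *Pou2f2* (0.75) and *Ebf1* (0.30) among the factors, and *Cd40* (0.58), a receptor for T cell help, and the chemokine receptor *Cxcr4* (0.58) among the ligands and homing genes. Antibody heavy chains did not share a direction, with *Ighg1* at 2.02 and *Ighg2c* at −1.82.

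In the *Dok3* line, *Irf4* ranged from 5.64 over a median of 15.4 to 32.9 CPM in 26 knockout libraries and from 5.22 over 14.3 to 54.1 CPM in 21 wild-type libraries, with a log2 fold change of −0.25 ± 0.200 (adjusted p = 0.9996 by edgeR). The ranges overlapped nearly whole. All 10 members were negative by little, from −0.02 for *Xbp1* to −0.26 for *Mzb1*. None was called by edgeR, DESeq2 or limma-voom, and none had an unadjusted p under 0.05 by any of the 3, in a contrast where 0% of 17612 genes were called by edgeR (2.19% at an unadjusted p under 0.05, 3 called by DESeq2 and 0 by limma-voom). *Tnfrsf17* was at 0.831 ± 0.711 CPM against 0.892 ± 0.740. The 11 B cell genes were all negative (median −0.16), the 9 antibody genes split 5 positive to 4 negative (median 0.01) and the 12 T cell genes all negative (median −0.35, 3 at an unadjusted p under 0.05).

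Whether the genotype effect differed between lines was tested over the *Nckap1l*, *Gpsm3* and *Dok3* lines together, leaving out the line of the choice. Of the 10 members none was called by edgeR or by limma-voom, and 5 had an unadjusted p under 0.05 by each, with 0.0985% of 20308 genes called by edgeR and 5.69% at an unadjusted p under 0.05 (678 genes by limma-voom). *Pou2af1* came nearest (adjusted p = 0.0771 by edgeR), followed by *Mzb1* (0.117) and by *Irf4* and *Tnfrsf13c* (0.270 each). With the run of sample numbers as a covariate, *Pou2af1* (adjusted p = 0.00219 by edgeR), *Tnfrsf13c* (0.0299) and *Mzb1* (0.0388) passed the threshold. Over all genes, 42 of 20781 passed in that fit, against 20 of 20308 in the main fit. *Pou2af1* also passed without the squamous libraries (0.0292), where 84 of 20137 genes did. *Pou2af1* and *Mzb1* passed without those whose targeted gene went against the label (0.0255 and 0.0439), where 72 of 20216 genes did. *Irf4* passed in none of these fits. Both exclusions were set after seeing the data. The second left out knockout libraries 8 and 10 of the *Nckap1l* line, which were among its 4 knockout libraries with high B cell genes. They held 5.50 and 5.32 CPM of *Pou2af1* against a knockout median of 0.250, so leaving them out lowers the knockout level of that line.

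Sex could be compared in 2 lines. In the *Nckap1l* line *Irf4* was at 20.97 ± 22.8 CPM in 8 wild-type females, 8.16 ± 3.16 in 7 wild-type males, 6.66 ± 4.50 in 4 knockout females and 5.84 ± 3.31 in 12 knockout males, a log2 difference of female minus male of 0.86 ± 0.392 (adjusted p = 0.265 by edgeR), which was 0.46 without wild-type library 8. *Sdc1*, the proteoglycan that epithelia carry too, had 0.33 ± 0.156 (adjusted p = 0.276 by edgeR). None of the 9 members was called by edgeR, DESeq2 or limma-voom, against 0.237% of all genes by edgeR, and 2, 2 and 0 had an unadjusted p under 0.05, where 16.7% of all genes did by edgeR. Squamous markers were present in 9 of 12 females and 6 of 19 males of this line. Without those libraries 3 females were left, wild-type library 8 among them, beside 13 males. The median log2 difference of the 10 members was then 1.30, against 0.335 over 9 in the main fit. None was called, and 4 had an unadjusted p under 0.05 by edgeR, where 1286 of 18649 genes did. With so few females this fit cannot tell the squamous tissue apart from that library, and the part of either was not tested. In the *Dock2* line *Irf4* was at 6.07 ± 2.07 CPM in knockout females, 4.27 ± 0.762 in knockout males, 9.17 ± 3.92 in wild-type females and 8.33 ± 3.51 in wild-type males, with a log2 difference of 0.29 ± 0.154 (adjusted p = 0.235 by edgeR). None of the 9 members was called there by edgeR, DESeq2 or limma-voom, nor had any an unadjusted p under 0.05, although 9.79% of all genes were called for sex by edgeR and 25.7% had an unadjusted p under 0.05.

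**Figure D4:**
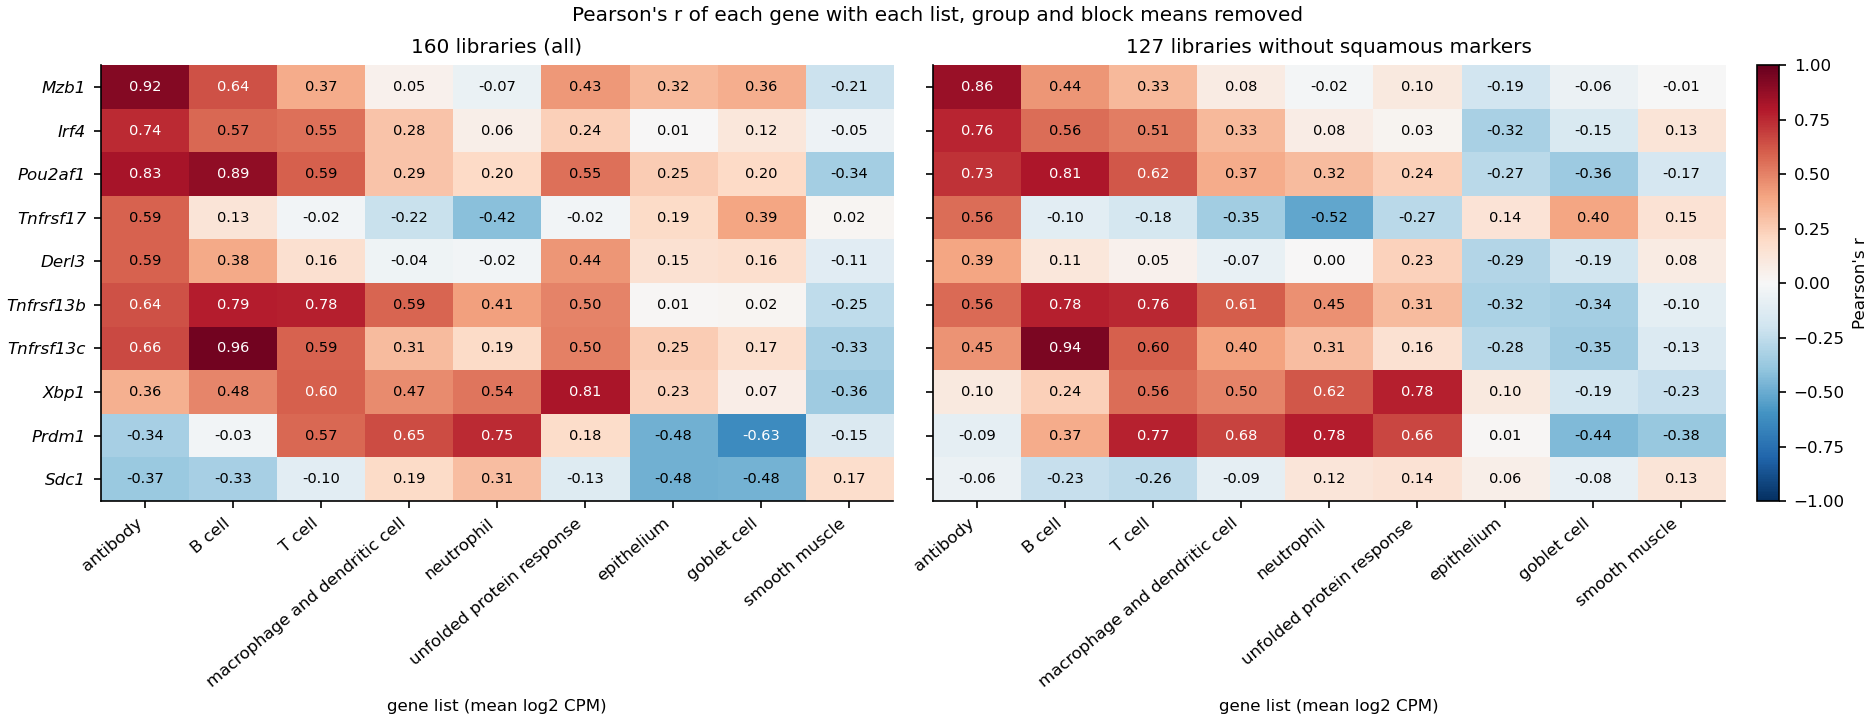
Pearson correlation (colour) of each of the 10 genes (rows) with the mean log2 CPM of 9 marker lists (columns), after the mean of each line, genotype and run of sample numbers was removed, in all 160 libraries and in 127 of the 128 without squamous markers (without wild-type library 8 of the *Nckap1l* line, which was then alone in its group). *Mzb1* and *Tnfrsf13c* are the strongest, with the antibody list (0.917) and the B cell list (0.964).

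With which cells each gene varied from mouse to mouse was asked within groups. The mean of each line, genotype and run of sample numbers was removed from each gene and from the mean log2 CPM of each of 9 marker lists, and 64 of the 90 pairs passed an adjusted permutation p of 0.05 (50 positive and 14 negative). Correlations without squamous libraries rest on 127 of the 128 others, since wild-type library 8 of the *Nckap1l* line, the highest for 8 of the 10 genes, was then alone in its run and genotype and was left out with them. The gene and the list of a library share its depth and tissue makeup, and each group mixes treated and untreated mice. *Irf4* went with the antibody genes (r = 0.743, rho = 0.670, adjusted permutation p = 2.37e-05 and 2.81e-05, from the smallest p that 100000 permutations can give, n = 160), and r was 0.692 without the 2 libraries farthest from the median of the list. It was weaker with the B cell genes (r = 0.572, rho = 0.505) and T cell genes (r = 0.550, rho = 0.449), each with the same adjusted permutation p, and near 0 with the epithelium list (r = 0.01, rho = −0.04, adjusted permutation p = 0.943 and 0.685), where r was −0.32 without squamous libraries. Within the *Dock2*, *Gpsm3* and *Dok3* lines the correlation with antibody genes was 0.669, 0.591 and 0.798, and over the 129 libraries without the *Nckap1l* line, whose B cell genes part its libraries, 0.706.

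The plasma cell genes divided by list. *Mzb1*, the chaperone, followed the antibody genes (r = 0.917, rho = 0.876, 0.898 without the 2 farthest), and so did BCMA, *Tnfrsf17* (r = 0.592, rho = 0.558, 0.543 without them), which had r = 0.131 with the B cell genes. *Derl3* had r = 0.593 (rho = 0.603, 0.519 without the 2 farthest) with the antibody genes, which was 0.522 without wild-type library 8 of the *Nckap1l* line and 0.39 without that library and the squamous ones. *Tnfrsf13c*, the BAFF receptor, followed the B cell genes (r = 0.964, rho = 0.949, 0.960 without the 2 farthest), as did *Pou2af1* (r = 0.887, rho = 0.840, 0.867 without them), which also went with antibody genes (r = 0.825). TACI, *Tnfrsf13b*, went with the B cell genes (r = 0.788, rho = 0.800) and about equally with the T cell genes (r = 0.776, rho = 0.747), both at 0.747 for r without the 2 farthest. Each of these had an adjusted permutation p of 2.37e-05 for r and 2.81e-05 for rho, except *Tnfrsf17* with the B cell genes (0.161 and 0.655).

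**Figure D5:**
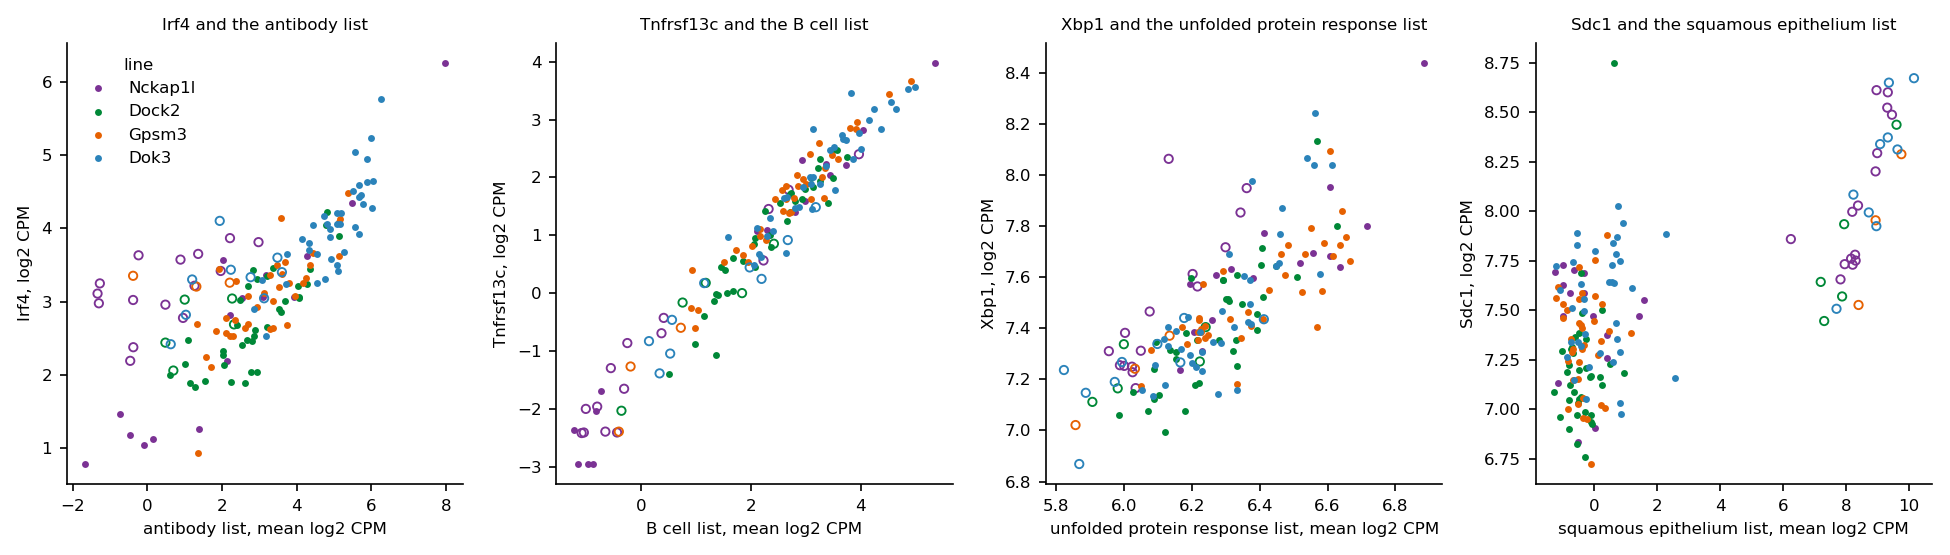
Log2 CPM of a gene (vertical axis) against the mean log2 CPM of a marker list (horizontal axis) in 160 libraries, with colour for the line and open circles for libraries with squamous markers, in 4 panels: *Irf4* with antibody genes, *Tnfrsf13c* with B cell genes, *Xbp1* with the unfolded protein response and *Sdc1* with squamous epithelium. *Tnfrsf13c* follows the B cell genes closely (0.964 within groups), and *Sdc1* is high in the 32 squamous libraries.

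*Xbp1*, *Sdc1* and *Prdm1* did not follow the antibody genes in this way. *Xbp1* went with the 31 genes of the unfolded protein response (r = 0.814, rho = 0.778, adjusted permutation p = 2.37e-05 for r, 0.784 without the 2 farthest), at 0.82, 0.83 and 0.82 within the *Dock2*, *Gpsm3* and *Dok3* lines. Its r with antibody genes was 0.358 (rho = 0.232, adjusted permutation p = 3e-04 and 0.00880) in all libraries, 0.253 without wild-type library 8 of the *Nckap1l* line and 0.10 in the 127 libraries. *Prdm1* went with neutrophil genes (r = 0.748, rho = 0.771, adjusted permutation p = 2.37e-05 for r, 0.747 without the 2 farthest) and was negative with antibody genes (r = −0.336, rho = −0.340, adjusted permutation p = 2e-04 and 0.00015), at −0.09 without squamous libraries. *Sdc1* was negative with antibody genes (r = −0.370, rho = −0.279) and with the epithelium list (r = −0.478, rho = −0.331), each with an adjusted permutation p of 2.37e-05 for r, and both were near 0 without the squamous libraries (−0.06 and 0.06).

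Over all lines together, *Sdc1* and *Prdm1* had higher means where squamous markers were present, and the other 8 genes lower ones. In the 32 squamous libraries *Sdc1* was at 274 ± 71.9 CPM and in the other 128 at 169 ± 41.0 CPM, and *Prdm1* at 43.5 ± 17.3 and 16.1 ± 10.5 CPM. *Pou2af1* was lower, at 3.09 ± 3.36 against 12.2 ± 12.7 CPM, and so was *Mzb1*, at 0.867 ± 0.846 against 4.84 ± 7.28 CPM, while *Irf4* was at 9.15 ± 3.01 against 11.4 ± 9.56 CPM. The lines hold unequal shares of squamous libraries, and within the *Nckap1l* knockout *Irf4* was higher in them (8.50 ± 2.34 CPM, n = 7) than in the rest (4.14 ± 3.07 CPM, n = 9). These are given without a test, since the libraries were set apart by what was measured in them. Within 27 of the 32 squamous libraries, the other 5 being alone in their run and genotype, the level of the squamous genes went with *Prdm1* (r = 0.874, rho = 0.925, adjusted permutation p = 5e-05 for r) and with *Sdc1* (r = 0.858, rho = 0.867, adjusted permutation p = 5e-05 for r), against 0.259 and 0.02 in 127 of the 128 libraries without those markers. *Irf4* had 0.145 and 0.07.

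Among all genes with a mean log2 CPM of at least 0, those whose pattern over the 160 libraries was most like that of *Irf4* were, by Spearman's rho on the same centred values, *Tnfrsf13b* (0.717), *Mzb1* (0.713), *Lax1* (0.699), *Pou2af1* (0.695), *Cd28* (0.683), *Igkc* (0.640), *Ly6c2* (0.635), *Cyfip2* (0.628), *Iglc2* (0.622) and *Map4k1* (0.610). Members stood in 3 of the first 4 places, and *Prdm1* and *Sdc1* were not among the 10, with Pearson r of 0.05 and −0.16 with *Irf4*. The genes most like *Xbp1* were *Manf* (0.806), *H13* (0.799), *Hspa5* (0.758), *Hyou1* (0.755) and *Gmppb* (0.754), of which *Manf*, *Hspa5* and *Hyou1* are chaperones or stress proteins of the endoplasmic reticulum. Those most like *Tnfrsf17* were *Jchain* (0.657), *Igkc* (0.624), *Igha* (0.620), *Eaf2* (0.615) and *Mzb1* (0.578), among them the joining chain (*Jchain*), the kappa light chain (*Igkc*) and the IgA heavy chain (*Igha*). Those most like *Sdc1* were *Slc27a4* (0.644), *Epha1* (0.642), *Npc1* (0.630), *Napa* (0.619) and *Msantd3* (0.615), at 0.409 to 0.543 without squamous libraries.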

How the data were processed

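RNA was sequenced from distal colon of 160 mice after ribosomal depletion (stranded KAPA kit, single reads). Per the authors' notes, STAR placed the reads on mm10 and featureCounts summed them by gene; the strand setting of counting and the versions are not given in the sources used here. The deposited values are raw counts of 39179 Ensembl genes per library, not normalized, of which GENCODE M21 named 37693 (96.2%, with 99.67% of counts).

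The members and all gene lists were chosen with earlier results of these data known. Groups are line and genotype as labelled. A run of sample numbers is a set of nearby, not always consecutive, numbers in the sample titles of a line, parted from the next run by a wider gap. The labels do not say which replicates were littermates, so the tests treated all mice as independent. Their p-values weigh differences against the spread between mice of a group, which also holds the unrecorded DSS treatment and litter. Counts were scaled by TMM, filtered by filterByExpr and tested over all genes per line with edgeR 4.0.16 (quasi-likelihood, R 4.3.3), with sex as covariate in the *Nckap1l* and *Dock2* lines and Benjamini-Hochberg adjustment at 0.05. Alternatives were DESeq2 1.42.0, limma-voom (limma 3.58.1), 2 surrogate variables (sva 3.50.0), no filter, no TMM, males only, no sex covariate, DESeq2 size factors, a prior count of 0.5 and the run as covariate; leaving out doubted libraries or wild-type library 8 of the *Nckap1l* line was added after seeing the data. A library was called squamous above a mean log2 CPM of 3 (lowest such 6.253, highest other 2.567), and a targeted gene counted as against its label when its ratio to *Ptprc* lay at or past the other genotype's median; both limits were set after seeing the data. CPM is TMM-scaled, and log2 CPM has a prior count of 2. Within groups, 1569 pairs of libraries held no identical pair. Correlations used Python 3.11.15 and scipy 1.17.1. Named genes were all members, at most the 3 genes of smallest p in each list and the genes most like *Irf4*, *Xbp1*, *Sdc1* and *Tnfrsf17*. No protein sequences were used here, and the start of *Mzb1* is not shown.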

Additional observations from a re-analysis of the deposited data

Results flagged for a closer look

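A search for single libraries far from the rest of their group, by Dixon's ratio of the gap to the nearest library over the whole range at its 95% limit, was made in 12 groups of 4 to 10 libraries of the same line, genotype, sex and run of sample numbers for each of the 10 genes. It picked out 18 of 120 values. The limit gives about 1 in 20 for independent values of 1 normal spread. The members vary together, and the groups mix treated with untreated mice and squamous with other libraries. That rate therefore cannot be set against the 18.

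In the *Nckap1l* line, knockout library 11 was the lowest of its group of 5 males for *Irf4* (Dixon's ratio 0.931), *Pou2af1* (0.826), *Tnfrsf13b* (0.767) and *Tnfrsf13c* (0.769). Wild-type library 8 was the highest of its group of 6 females for *Irf4* (0.725), *Xbp1* (0.765), *Mzb1* (0.715), *Pou2af1* (0.68) and *Derl3* (0.735), and it was the one library of that group without squamous markers.

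In the *Dock2* knockout, library 13 stood above its group for *Prdm1* (0.543, at 60.6 CPM) and *Sdc1* (0.566, at 347 CPM), and it was the one knockout library of the line with squamous markers; library 3, without them, did so for *Prdm1* (0.56, at 43.7 CPM). *Xbp1* was high in *Dok3* knockout library 19 (0.567, at 303 CPM) and in *Gpsm3* wild-type library 14 (0.472, at 203 CPM). In the *Gpsm3* line, *Irf4* was lowest in knockout library 2 (0.518, at 1.79 CPM), *Derl3* highest in knockout library 14 (0.551, at 10.3 CPM) and in wild-type library 4 (0.57, at 7.47 CPM), and *Sdc1* highest in wild-type library 10 (0.544, at 313 CPM), the one wild-type library of that line with squamous markers. The part of the squamous tissue in these values was not tested.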

How the results depend on the processing

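In the *Nckap1l*, *Gpsm3* and *Dok3* lines no member was called in the main fit or in any of the alternatives (12, 10 and 10). With the run of sample numbers as covariate 3 members were called in the comparison between lines, without squamous libraries 1 and without libraries whose targeted gene went against the label 2, against 0 in the main fit. Over all genes these fits called 42 of 20781, 84 of 20137 and 72 of 20216, against 20 of 20308. Of 90 correlations, 64 passed in all libraries, 23 within squamous libraries and 34 within the *Dock2* line. The sign changed for *Prdm1* of the *Nckap1l* line (0.01) with limma-voom (−0.18), 2 surrogate variables (−0.14), no sex covariate (−0.12), males only (−0.091), without squamous libraries (−1.08) and without libraries of a targeted gene against the label (−0.048), and for *Xbp1* (−0.057) and *Sdc1* (−0.12) without squamous libraries. It also changed in the *Dock2* line for *Prdm1* in males (−0.15) and for *Xbp1* (0.021) and *Sdc1* (0.017) without libraries of a targeted gene against the label, and in the *Dok3* line for *Prdm1* with surrogate variables (0.0033) and for *Mzb1* (0.098) and *Pou2af1* (0.071) with limma-voom; the cause was not tested. Signs held in the other 99, 87, 90 and 97 values of single members (*Nckap1l*, *Dock2*, *Gpsm3* and *Dok3*).

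Over all genes, the *Nckap1l* contrast gave 1 call, against 24 by DESeq2, 110 with surrogate variables, 27 without the filter, 4 with the run as covariate and 0 by limma-voom, in males, without the sex covariate and without squamous libraries. The *Dock2* contrast gave 6, against 94 by DESeq2, 72 with surrogate variables, 31 without the filter, 0 by limma-voom, 1 in males, 90 without squamous libraries and 56 without libraries of a targeted gene against the label. The *Gpsm3* contrast gave 1, against 4 by DESeq2, 32 without the filter and 2 without squamous libraries, and the *Dok3* contrast 0, against 3 by DESeq2, 15 without the filter and 3 without libraries of a targeted gene against the label. The comparison between lines gave 20, against 1 by limma-voom, 49 without the filter, 42 with the run, 84 without squamous libraries and 72 without libraries of a targeted gene against the label. Sex in the *Nckap1l* line gave 45 (26 higher and 19 lower in females; 28 and 7 without TMM), against 208 by DESeq2, 18 with the run and 9 without squamous libraries, and in the *Dock2* line 1762 (732 and 1030; 852 and 682 without TMM), against 3214 without squamous libraries and 1061 without libraries of a targeted gene against the label. No paired analysis was possible because the labels give sample numbers, not replicate numbers shared between groups. *Tnfrsf17*, *Tnfrsf13c* and *Mzb1* were near the depth limit in many libraries, and *Pou2af1* in many of the *Nckap1l* line.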
